A study of Mus musculus with 6 samples.

Results

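The genes described here are 42 genes of the cell division cycle, taken by name as a set that marks proliferating, self-renewing macrophages, out of 32879 genes with a count record in RNA-seq of peritoneal macrophages (PMs). The counts of all RefSeq transcript records of a gene were summed, and each of the 42 genes had at least 1 record. PMs were cell-sorted from 3 control mice, F1 offspring of New Zealand white and BALB/c parents aged 33, 33 and 30 weeks, and from 3 lupus-diseased-BWF1 mice, F1 offspring of New Zealand black and New Zealand white parents aged 31, 31 and 34 weeks. All mice were females, with 1 library per mouse, and disease was defined by anti-DNA antibodies and severe proteinuria. The control strain differs from BWF1 in 1 parent, so strain and disease cannot be told apart. The sort took CD11b+ F4/80+ cells, and the libraries were not split by cell cycle phase.

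Resident macrophages of the peritoneal cavity can maintain their number by dividing in place, with little input from blood monocytes. A dividing cell first makes D-type cyclins, which with their kinases release E2F factors from the retinoblastoma proteins. E2F factors then drive the genes of DNA synthesis, and later the B-MYB and FOXM1 factors drive the genes of mitosis. In resting cells the DREAM complex keeps these genes low, and inhibitors such as p21 (Cdkn1a), p27 (Cdkn1b) and p18 (Cdkn2c) hold the cyclin-dependent kinases in check.

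The genes of DNA synthesis and those of mitosis differ in the letters of their promoters, shown here because both groups are followed mouse by mouse in the next paragraphs. RefSeq promoters (GRCm38.p6, 250 bases before to 50 bases after a gene's start) were matched by symbol for 34 of the 42 genes, with 39 promoters in all. Promoters for Ccnd1, Ccnd2, Ccne2, Mcm4, Ccna2, Aurkb, Kif20a and Tpx2 were not matched. Motifs searched on both strands were the CHR element TTTGAA, which the DREAM and B-MYB complexes bind, the CCAAT box CCAAT, and the E2F core, spelled TTCGCGC with the variant forms TTGGCGC as well as TTCCCGC and lastly TTGCCGC. In the sequences, written 5′ to 3′ on the gene's strand, capitals mark these letters. The promoters of Cdk1 (chr10:69352863-69353162, minus strand), Ccnb2 (chr9:70421505-70421804, minus strand), Plk1 (chr7:122159185-122159484, plus strand) and Mki67 (chr7:135716330-135716629, minus strand) stand for the mitosis genes, and that of Mcm6 (chr1:128359656-128359955, minus strand) for the DNA synthesis genes.
Cdk1: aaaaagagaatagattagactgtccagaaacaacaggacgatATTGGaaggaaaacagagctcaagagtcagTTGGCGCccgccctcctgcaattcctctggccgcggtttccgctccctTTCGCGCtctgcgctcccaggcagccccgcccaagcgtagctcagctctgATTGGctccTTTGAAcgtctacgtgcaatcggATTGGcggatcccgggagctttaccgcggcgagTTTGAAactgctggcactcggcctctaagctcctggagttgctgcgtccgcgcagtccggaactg
Ccnb2: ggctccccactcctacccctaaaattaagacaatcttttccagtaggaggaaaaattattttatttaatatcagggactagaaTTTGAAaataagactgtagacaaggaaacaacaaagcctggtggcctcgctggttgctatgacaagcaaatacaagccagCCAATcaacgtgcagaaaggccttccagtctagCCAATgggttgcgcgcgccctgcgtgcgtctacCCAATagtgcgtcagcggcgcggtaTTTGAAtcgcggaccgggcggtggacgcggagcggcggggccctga
Plk1: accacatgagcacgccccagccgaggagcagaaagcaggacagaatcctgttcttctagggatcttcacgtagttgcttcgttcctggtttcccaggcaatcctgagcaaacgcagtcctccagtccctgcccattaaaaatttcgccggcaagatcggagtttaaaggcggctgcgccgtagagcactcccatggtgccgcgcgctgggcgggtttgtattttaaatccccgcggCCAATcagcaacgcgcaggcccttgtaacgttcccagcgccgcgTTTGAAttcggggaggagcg
Mki67: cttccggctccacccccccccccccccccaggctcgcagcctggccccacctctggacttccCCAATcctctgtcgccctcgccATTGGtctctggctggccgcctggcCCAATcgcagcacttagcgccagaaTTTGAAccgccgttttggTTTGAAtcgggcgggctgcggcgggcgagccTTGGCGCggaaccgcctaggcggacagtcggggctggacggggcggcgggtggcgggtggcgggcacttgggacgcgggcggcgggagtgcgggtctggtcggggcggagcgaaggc
Mcm6: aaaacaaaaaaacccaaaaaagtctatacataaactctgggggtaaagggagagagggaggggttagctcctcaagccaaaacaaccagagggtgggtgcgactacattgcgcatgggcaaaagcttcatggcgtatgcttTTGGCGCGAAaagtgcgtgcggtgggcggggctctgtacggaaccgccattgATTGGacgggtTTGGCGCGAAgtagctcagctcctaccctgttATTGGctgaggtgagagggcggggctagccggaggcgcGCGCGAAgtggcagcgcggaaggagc

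Among the mitosis genes, 14 of 19 promoters (73.7%) held the CHR letters, against 17.9% of all 32851 promoters, and each of these 14 also held a CCAAT box. The 2 Prc1 promoters overlap and are counted separately. Among the DNA synthesis genes, 1 of 11 promoters held the CHR letters, and 7 of 11 (63.6%) held an E2F core, against 9.57% of all promoters and 15.8% of those of the mitosis genes. A CCAAT box stood in 89.5% of the mitosis promoters, in 81.8% of the DNA synthesis promoters and in 37.4% of all promoters. The Mcm6 promoter held 5 E2F cores and 2 CCAAT boxes, and the Cdk1 promoter held 2 CHR elements, 3 CCAAT boxes and 2 E2F cores, where matches on opposite strands that share letters count separately. In 3 of the 39 promoters, letters of 2 motifs overlapped. Such matches describe letters within the window and are no measure of binding.

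**Figure D1:**
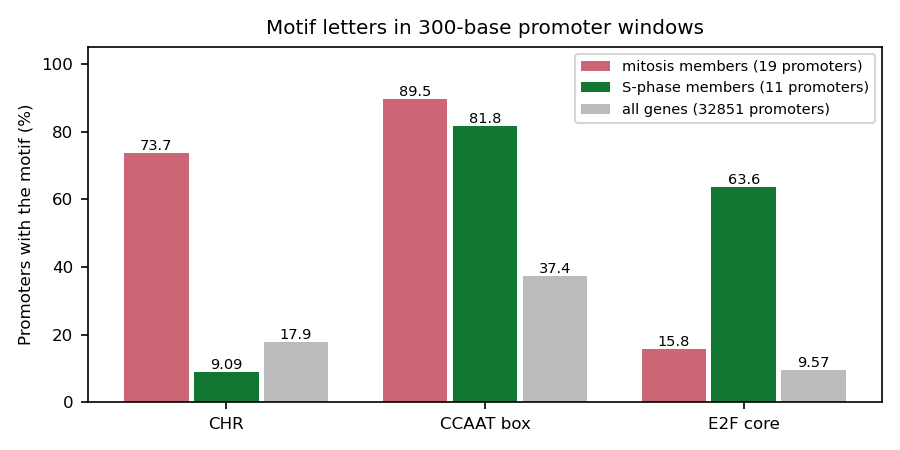
Share of promoters (%, vertical axis) that hold the CHR letters, a CCAAT box or an E2F core within 300 bases around the gene start, for the mitosis genes, the DNA synthesis (S-phase) genes and all genes of the table. The CHR letters stand in 73.7% of the mitosis promoters and 9.09% of the DNA synthesis promoters, and the E2F cores in 15.8% and 63.6%.

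The libraries held 3629901 to 5003360 counts each, and a floor of 3 counts came to 0.652 to 0.888 CPM (counts scaled by library size with TMM factors), a limit that covers counting error only. The large peritoneal macrophage markers were abundant in each library, with a summed level of 55089 to 74362 CPM over 12 genes, with Lyz2 and Prg4 the most counted. Of these 12 genes, 8 had negative estimates in diseased-BWF1 mice, 3 had an unadjusted p under 0.05 and 0 were called with edgeR, while DESeq2 called Cd68 lower (adjusted p = 0.000126). The part of this in the results was not tested. The 9 B cell markers with a record summed to 1.58 to 7.83 CPM, and the 10 T and NK cell markers to 0.911 to 3.80 CPM. The lowest T and NK cell sum was 3 counts, at the floor. Sums over 6 dendritic cell markers (8.17 to 14.1 CPM), 9 mast cell and eosinophil markers (0.264 to 2.5 CPM), 9 mesothelial cell and fibroblast markers (up to 1.90 CPM) and 6 red blood cell markers (0.267 to 1.05 CPM) were low as well. The lists for neutrophils (205 to 338 CPM) and for monocytes and small macrophages (43917 to 69738 CPM) were carried by Csf3r and Fn1, while Retnlg and Mpo were at 0 in each mouse and Ly6c2 had 1 count in all. Of the 8 monocyte and small macrophage genes, 4 were tested, with 3 positive estimates and 1 negative. With edgeR, 1 had an unadjusted p under 0.05 and 0 were called. The mean sum of this list was 55609 CPM in control and 68055 CPM in diseased-BWF1 mice. The part of such cells in the results was not tested.

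No gene of the set passed the test between diseased-BWF1 and control mice. Of the 42 genes, 22 passed the low-count filter and 0 were called in either direction. Of all 10505 genes tested, 0.400% were called as higher with disease and 0.819% as lower, 1.22% in all. A call needed an adjusted p under 0.05 in edgeR (quasi-likelihood test, Benjamini-Hochberg adjustment) and a fold change of 1.5 or more. An unadjusted p under 0.05 was found for 5 of the 22 genes (Ccnd2, Mcm6, Tyms, Cdkn1a and Cdkn1b), against 13.2% of all genes tested. All 5 had positive log2 fold changes. The estimate was positive for 12 of the 22 genes, beside 50.9% of all genes, and the median log2 fold change (log2FC) was 0.04, beside 0.01 over all genes. DESeq2, the tool of the study's methods, called 0 of the 36 genes of the set that it gave an adjusted p, where it called 1.06% of all genes higher and 2.01% lower, 3.07% in all. It gave an unadjusted p under 0.05 to 4 genes of the set. In this comparison of whole sorted populations, a difference in the share of dividing cells and a difference in RNA per dividing cell cannot be told apart.

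**Figure D2:**
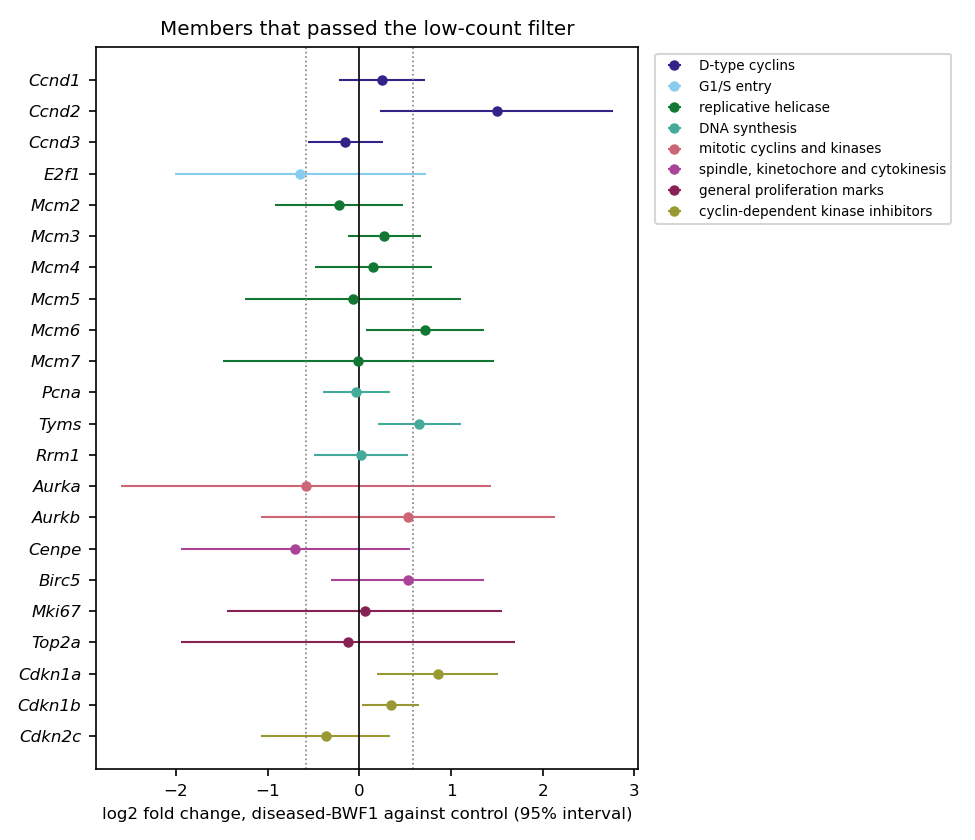
Log2 fold change of the 22 genes that passed the low-count filter (horizontal axis, diseased-BWF1 against control; points, estimates of edgeR; bars, 95% intervals), coloured by role. Dotted lines mark a fold change of 1.5 in either direction. Estimates run from -0.70 (Cenpe) to 1.5 (Ccnd2), and the intervals of E2f1, Mcm5, Mcm7, Aurka, Aurkb, Mki67 and Top2a cross both dotted lines.

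Per length of transcript, Ccnd3, Pcna, Cdkn1a and Ccnd1 had the highest levels of the 42 genes, and the genes of mitosis lay low. Levels in CPM per kilobase of transcript used the GENCODE vM21 transcripts paired with curated RefSeq records. The control mean was 70.2 for Ccnd3, a D-type cyclin, 42.9 for Pcna, the sliding clamp of DNA polymerases, 38.3 for Cdkn1a and 18.7 for Ccnd1. It was 2.07 for Mki67, the Ki-67 antigen of cycling cells, 2.06 for Top2a, a DNA topoisomerase of dividing cells, and 0.246 for Cdk1, the kinase that starts mitosis. The 20 genes below the filter lay between 0.0912 (Cenpf) and 1.98 (Ube2c) in control mice, and the largest count that any of them had in a mouse was 23.

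Within each group, the mice differed more in the summed level of these mitosis genes than the group means did. The summed level of the 22 mitosis genes (mitotic cyclins and kinases, spindle, kinetochore and cytokinesis genes, Mki67 and Top2a) was 98.1, 38.5 and 64.7 CPM in control mice 1, 2 and 3, and 125, 19.7 and 40.6 CPM in diseased-BWF1 mice 1, 2 and 3. The highest mouse was 6.33 times the lowest, and both belonged to the diseased group. The group means were 67.1 ± 29.8 CPM (SD, n = 3) in control mice and 61.8 ± 55.7 CPM in diseased-BWF1 mice, a log2 ratio of -0.12, and the means differed by less than the SD of either group. Without diseased-BWF1 mouse 1 the log2 ratio was -1.15, without diseased-BWF1 mouse 2 it was 0.30, without diseased-BWF1 mouse 3 it was 0.11, and without control mouse 1 it was 0.26, so single mice set its direction. With curated mRNA records alone it was -0.47. The summed level of the list of other mitosis genes did not show a spread of this size. It was 398, 269 and 369 CPM in control mice and 412, 337 and 370.2 CPM in diseased-BWF1 mice. Abundant genes weigh most in such a sum, and single genes of the list differed. Espl1 had 405, 414 and 380 normalized counts in diseased-BWF1 mice 1, 2 and 3, and Kif23 had 57.6, 16.2 and 20.2.

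The 11 DNA synthesis genes (the MCM helicase, Pcna, Tyms, Rrm1, Rrm2 and Tk1) spread less. Their summed level was 242, 164 and 188 CPM in control mice 1, 2 and 3, and 273, 203 and 197 CPM in diseased-BWF1 mice 1, 2 and 3. The means were 198 ± 40.2 and 225 ± 42.4 CPM (SD, n = 3), a log2 ratio of 0.18, and the groups overlapped. The highest mouse was 1.67 times the lowest. In both sums the mouse numbered 1 was the highest of its group, at 1.90 times the mean of the other mice in the control group and 4.14 times in the diseased group for mitosis, and at 1.38 and 1.37 times for DNA synthesis. The numbers come from the sample labels, and same-numbered mice are different animals.

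**Figure D3:**
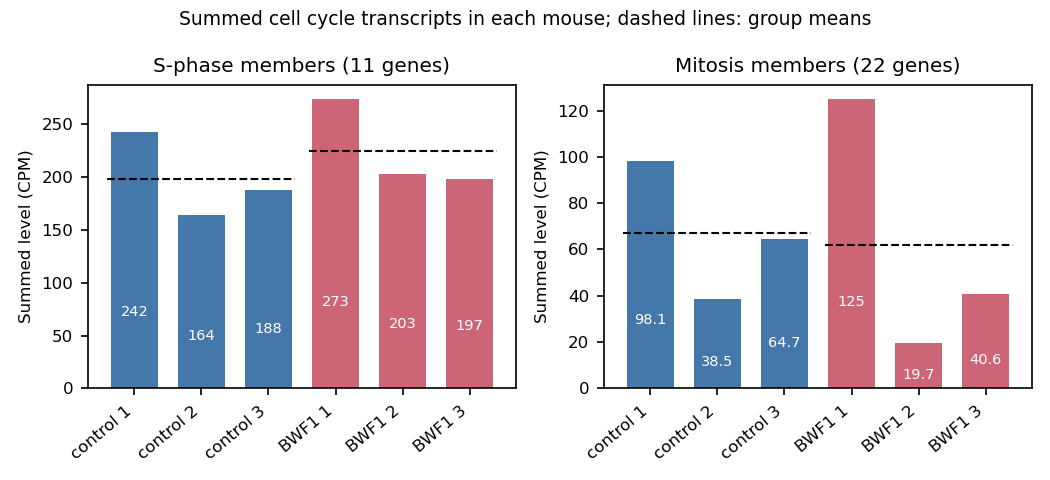
Summed level in CPM (vertical axis, from 0) of the 11 DNA synthesis genes (S-phase, left) and the 22 mitosis genes (right) in each control mouse (blue) and diseased-BWF1 mouse (red), with group means as dashed lines. For mitosis the mice span 19.7 to 125 CPM around group means of 67.1 and 61.8 CPM.

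The pattern held across many genes of the set. Control mouse 1 had the highest normalized count of its group for 13 of the 22 mitosis genes, control mouse 3 for 9 and control mouse 2 for 0. Diseased-BWF1 mouse 1 was the highest of its group for 19 of the 22, the exceptions being Birc5, Cdc20 and Ube2c. The mouse numbered 1 was the highest in both groups for 11 of the 22 mitosis genes and for 9 of the 11 DNA synthesis genes. Among the genes that passed the filter it was so for 4 of 6 and 7 of 9, where 1054 of all 10505 genes tested had this order. In the other mitosis genes it was so for 5 of 17 tested, and the median ratio of mouse 1 to the mean of the other mice was 1.16 in both groups. In the other S-phase genes it was so for 10 of 20 tested. These genes were measured in the same libraries and are no independent replicates. Diseased-BWF1 mouse 2 had 7 of the 22 mitosis genes at 0 counts and diseased-BWF1 mouse 3 had 3. Control mouse 2 had 3, control mouse 3 had 1, and mouse 1 of either group had none. The mice numbered 1 also had the largest library of their group, at 5003360 counts (control) and 4307327 counts (diseased). The part of library size in these zeros was not tested.

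**Figure D4:**
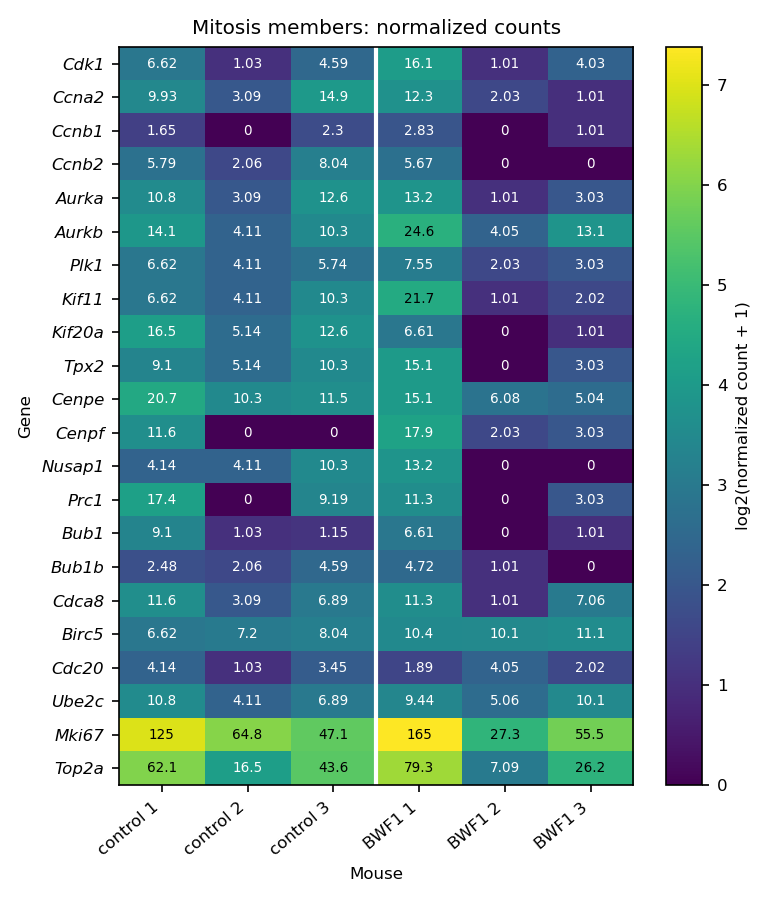
Normalized counts (numbers in the cells; colour, log2 of the normalized count + 1) of the 22 mitosis genes (rows) in the 6 mice (columns). The columns of mouse 1 in both groups are the brightest for Mki67, at 125 and 165, and diseased-BWF1 mouse 2 has 7 genes at 0.

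Markers of other cells are given beside this spread. The B cell markers summed to 7.83, 5.43 and 6.38 CPM in control mice 1, 2 and 3 and to 4.0, 4.0 and 1.58 CPM in the diseased-BWF1 mice. These sums rest on 36, 20 and 21 counts in control mice and 16, 15 and 6 counts in diseased-BWF1 mice. The control mice had the same order in the B cell and the mitosis sums. Diseased-BWF1 mice 1 and 2 had like B cell levels at the 2 ends of the mitosis range. For Ccr2, the chemokine receptor of monocytes, control mice gave 13, 8 and 2 counts and diseased-BWF1 mice 24, 6 and 31. The part of such cells in the mitosis level was not tested.

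Mki67 (gene at chr7:135689784-135716450 in GRCm38.p6, as all positions here) had 125, 64.8 and 47.1 normalized counts in control mice 1, 2 and 3 and 165, 27.3 and 55.5 in diseased-BWF1 mice 1, 2 and 3. The highest and the lowest mouse were both diseased, and the groups overlapped fully. The log2FC was 0.06 (standard error, SE, 0.64, adjusted p = 0.984, edgeR), with a 95% interval from -1.44 to 1.56, which is 0.368-fold to 2.95-fold. Top2a had 62.1, 16.5 and 43.6 normalized counts in control mice and 79.3, 7.09 and 26.2 in diseased-BWF1 mice. The difference was a log2FC of -0.12 (SE 0.78, adjusted p = 0.969, edgeR), with an interval from -1.94 to 1.70. Without diseased-BWF1 mouse 1 the log2FC was -0.95 for Mki67 and -1.30 for Top2a. At this depth and spread a change within these intervals was not excluded.

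Of the 7 mitotic cyclins and kinases, Aurka and Aurkb, the Aurora kinases of spindle poles and of chromosomes, passed the filter. Aurkb had 14.1, 4.11 and 10.3 normalized counts in control mice and 24.6, 4.05 and 13.1 in diseased-BWF1 mice, a log2FC of 0.53 (SE 0.68, adjusted p = 0.791, edgeR). Aurka had 10.8, 3.09 and 12.6 in control mice and 13.2, 1.01 and 3.03 in diseased-BWF1 mice, a log2FC of -0.58 (SE 0.86, adjusted p = 0.823, edgeR). The groups overlapped for both kinases. Without diseased-BWF1 mouse 1 the log2FC was -2.07 for Aurka and -0.17 for Aurkb, and without diseased-BWF1 mouse 2 it was -0.10 for Aurka. Cdk1 was below the filter, with 8, 1 and 4 counts in control mice and 17, 1 and 4 in diseased-BWF1 mice. Without the filter its log2FC came to 0.73 (SE 0.86, adjusted p = 0.750, edgeR). Plk1, Ccna2, Ccnb1 and Ccnb2, further drivers of mitosis, had at most 13 counts in a mouse and were below the filter. At this depth group differences in them could be missed.

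Of the 13 spindle, kinetochore and cytokinesis genes, Cenpe, a kinesin of the kinetochore, and Birc5, survivin of the chromosomal passenger complex, passed the filter. Cenpe had 20.7, 10.3 and 11.5 normalized counts in control mice and 15.1, 6.08 and 5.04 in diseased-BWF1 mice, with overlapping groups and a log2FC of -0.70 (SE 0.53, adjusted p = 0.636, edgeR), which was -1.35 without diseased-BWF1 mouse 1. Birc5 had a flat profile within each group, with 6.62, 7.20 and 8.04 normalized counts in control mice and 10.4, 10.1 and 11.1 in diseased-BWF1 mice. Its groups did not overlap (two-sided exact permutation, p = 0.1, the lowest value possible for 3 mice against 3), but its log2FC of 0.53 (SE 0.36) did not pass the test (adjusted p = 0.587, edgeR). Only the diseased-BWF1 mice reached the filter level for Birc5, with 11, 10 and 11 counts against 8, 7 and 7 in control mice. Birc5 was thus tested only because of the group where it is high, and its lack of overlap is no support for a difference. Groups without overlap were found for 3 of the 22 genes tested (Birc5, Tyms and Cdkn1b), all higher in diseased-BWF1 mice, beside 9.59% of all genes higher and 11.2% lower, 20.8% in all. Kif20a, a kinesin of cytokinesis below the filter and named after its values were seen, had 20, 5 and 11 counts in control mice and 7, 0 and 1 in diseased-BWF1 mice. Modelled without the filter, it had a log2FC of -2.12 (SE 0.85, adjusted p = 0.405, edgeR). It was -4.22 without diseased-BWF1 mouse 1, where the remaining diseased mice had 0 and 1 counts, and -1.54 without diseased-BWF1 mouse 2.

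Among the 6 subunits of the MCM replicative helicase, which unwinds DNA at replication forks, Mcm6 had the largest difference. It had 110.0, 62.8 and 65.5 normalized counts in control mice and 164, 127 and 104 in diseased-BWF1 mice, so that diseased-BWF1 mouse 3 lay just under control mouse 1. The log2FC was 0.72 (SE 0.28, adjusted p = 0.324, edgeR). The other 5 subunits had log2FCs from -0.22 (Mcm2) to 0.27 (Mcm3), and a difference between subunits in response was not tested. In Mcm7 and Mcm5 the mice numbered 1 stood highest above the other mice of their group, at 3.35 and 2.98 times their mean (control and diseased) for Mcm7 and 2.69 and 2.20 times for Mcm5. Mcm7 had 57.9, 18.5 and 16.1 normalized counts in control mice and 55.7, 16.2 and 21.2 in diseased-BWF1 mice, with a log2FC of -0.01 (SE 0.63, adjusted p = 0.998, edgeR). It was 0.84 without control mouse 1 and -0.75 without diseased-BWF1 mouse 1, and Mcm5 had 0.58 and -0.56 in these fits.

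Tyms (chr5:30038546-30073645), the enzyme that makes thymidylate for DNA synthesis, had the smallest p of the set. It had 43.0, 45.3 and 52.8 normalized counts in control mice and 87.8, 67.9 and 66.6 in diseased-BWF1 mice, and no diseased mouse overlapped the control range (two-sided exact permutation, p = 0.1). This gave a log2FC of 0.66 (SE 0.19, adjusted p = 0.198, edgeR), with an interval from 0.20 to 1.11. It did not pass the threshold. The lack of overlap depended on a non-coding record with 21 counts in diseased-BWF1 mouse 2 and at most 2 in any other mouse. The curated mRNA record had 43, 37 and 39 counts in control mice and 82, 41 and 52 in diseased-BWF1 mice, with overlapping groups. Curated mRNA records alone gave a log2FC of 0.54 (adjusted p = 0.601, edgeR). Pcna had 261, 199 and 281 normalized counts in control mice and 246, 250.2 and 229 in diseased-BWF1 mice, with a log2FC of -0.03 and the interval from -0.40 to 0.33. Rrm1, the large subunit of ribonucleotide reductase, had a log2FC of 0.02 (SE 0.22, adjusted p = 0.984, edgeR). Its partner Rrm2 and the thymidine kinase Tk1 were below the filter, with 1 to 18 counts per mouse each.

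The D-type cyclins, which link growth factor signals to the cycle, had unlike profiles. Ccnd1 had 293, 292 and 211 normalized counts in control mice and 365, 241 and 342 in diseased-BWF1 mice, a log2FC of 0.25 (SE 0.20, adjusted p = 0.661, edgeR). Ccnd3, the most abundant of them, had 654, 466 and 512 in control mice and 563, 477 and 431 in diseased-BWF1 mice, a log2FC of -0.15 (SE 0.17, adjusted p = 0.763, edgeR). Curated mRNA records alone gave 0.18 for Ccnd3. Ccnd2 (chr6:127125162-127152188) had 21.5, 31.9 and 17.2 normalized counts in control mice and 67.0, 110.4 and 23.2 in diseased-BWF1 mice, where mice 1 and 2 were above each control mouse and mouse 3 was among them. Its log2FC of 1.5 (SE 0.54, adjusted p = 0.295, edgeR) was the largest of the 22 genes tested and did not pass the test.

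Of the G1/S genes, E2f1, the founding E2F factor, passed the filter. It had 38.9, 31.9 and 50.5 normalized counts in control mice and 35.9, 5.06 and 36.3 in diseased-BWF1 mice. Diseased-BWF1 mouse 2 was far below the other 5 mice. The log2FC was -0.64 (SE 0.58, adjusted p = 0.701, edgeR), and it was -0.16 without diseased-BWF1 mouse 2. Cyclin E2 (Ccne2) had 12, 12 and 6 counts in control mice and 16, 4 and 4 in diseased-BWF1 mice, and cyclin E1 (Ccne1) had at most 7.

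Of the cyclin-dependent kinase inhibitors, Cdkn1a (chr17:29090979-29100722), the p21 inhibitor and a target of p53, had 280.5, 147 and 189 normalized counts in control mice and 262, 441 and 419.6 in diseased-BWF1 mice. Diseased-BWF1 mouse 1, the mouse with the highest mitosis level, had the lowest Cdkn1a of its group and lay below control mouse 1, so the groups overlapped. The means were 206 ± 68.2 and 374 ± 97.3 (SD, n = 3), and the log2FC was 0.85 (SE 0.28, adjusted p = 0.252, edgeR). Without both mice numbered 1, an alternative chosen after the data were seen, the log2FC was 1.34, and the gene was not called there either (0.0568% of all genes were called in that fit). In the control group the order was the opposite, as control mouse 1 had the highest Cdkn1a and the highest mitosis level.

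Cdkn1b (chr6:134920401-134925525), the p27 inhibitor, had 127, 127 and 137 normalized counts in control mice and 147, 180.3 and 167 in diseased-BWF1 mice, with no overlap (two-sided exact permutation, p = 0.1). The log2FC was 0.34 (SE 0.13, adjusted p = 0.335, edgeR), with an interval from 0.03 to 0.65. Cdkn2c, the p18 inhibitor of CDK4 and CDK6, had 24.8, 31.9 and 47.1 in control mice and 25.5, 30.4 and 24.2 in diseased-BWF1 mice, with overlapping groups. This gave a log2FC of -0.37 (SE 0.30, adjusted p = 0.661, edgeR).

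**Figure D5:**
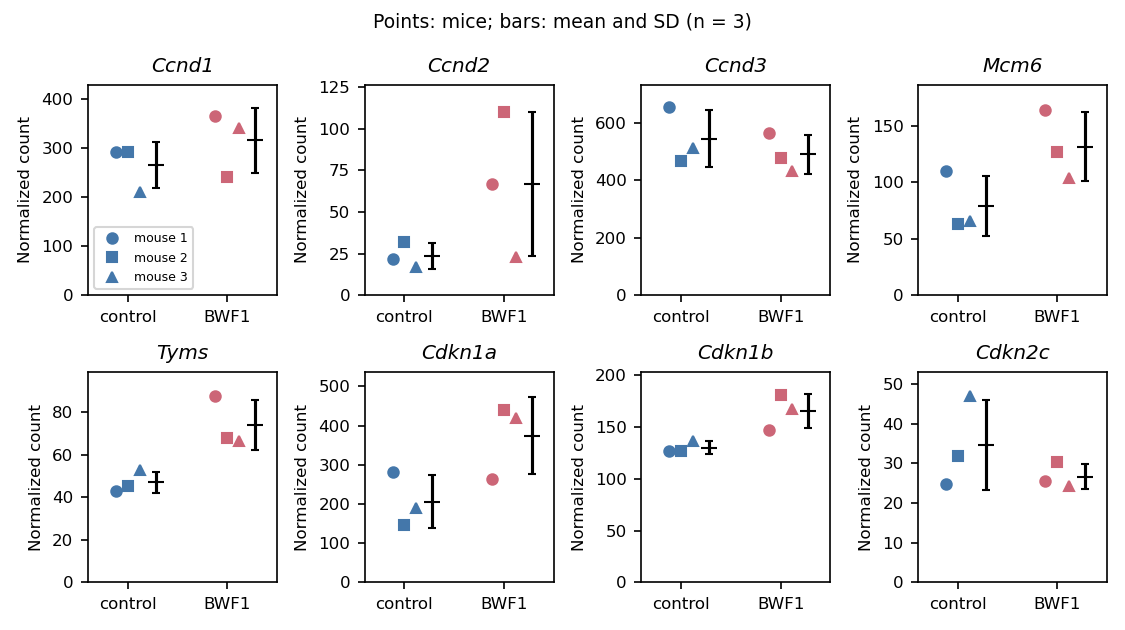
Normalized counts (vertical axes, from 0) of the D-type cyclins, Mcm6, Tyms and the kinase inhibitors in each mouse (points; shape, mouse number) with group mean and SD (n = 3). Tyms and Cdkn1b have no overlap between groups in these sums over records, while Cdkn1a in diseased-BWF1 mouse 1, at 262, lies within the control range of 147 to 280.5.

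Further genes of the cycle gave the same count of calls with edgeR, but not with DESeq2. Lists of other S-phase genes (20 of 32 tested) and other mitosis genes (17 of 40) had 0 genes called with edgeR in either direction. The same held for other cell cycle control genes (29 of 33) and p53 targets (17 of 18), where edgeR called 1.22% of all genes tested. In this order, 1, 1, 2 and 0 genes had an unadjusted p under 0.05 (edgeR), beside 13.2% of all genes tested. The median log2FCs of these lists were 0.02, 0.09, -0.04 and 0.07, and all lists were chosen with results of these data known. Among the genes of these lists that edgeR tested, DESeq2 called 2, where it called 3.07% of all genes. Incenp, the scaffold of the chromosomal passenger complex that holds Aurkb, Birc5 and Cdca8, had 159, 117 and 206 normalized counts in control mice and 93.5, 56.7 and 72.6 in diseased-BWF1 mice, without overlap. Its log2FC was -1.11 (SE 0.27, adjusted p = 0.119, edgeR), and DESeq2 gave an adjusted p of 0.0197. Cdkn2b, the p15 inhibitor of CDK4 and CDK6, had 61.2, 99.8 and 55.1 in control mice and 18.9, 31.4 and 16.1 in diseased-BWF1 mice, without overlap. Here the log2FC was -1.70 (SE 0.35, adjusted p = 0.0744, edgeR), and the adjusted p was 0.00487 with DESeq2.

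The further genes named from these 4 lists, by the smallest p after Incenp and Cdkn2b or of their own list, passed neither test. Gmnn, which blocks the licensing of DNA, and Rfc2, a clamp loader subunit, had log2FCs of -1.08 and 0.31 (adjusted p = 0.270 and 0.462, edgeR). Smc4, a condensin subunit, had 0.50 (adjusted p = 0.436, edgeR). Cdk4, the kinase partner of D-type cyclins, had -0.41 (adjusted p = 0.280, edgeR). Each diseased-BWF1 mouse lay below each control mouse for Cdk4 and Gmnn, and above for Rfc2, while the groups overlapped for Smc4. Groups without overlap were found for 20.8% of all genes tested. The p53 targets Btg2 and Sesn1 had 0.46 and -0.51 (adjusted p = 0.470 and 0.474, edgeR).

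Of 17 regulators tied to macrophage self-renewal, 15 were tested and 0 were called with edgeR. An unadjusted p under 0.05 (edgeR) was found for 3, beside 13.2% of all genes tested. Maf, which restrains self-renewal, had 1010.2, 1159 and 1565 normalized counts in control mice and 613, 436 and 903 in diseased-BWF1 mice, and the groups did not overlap. Its log2FC was -0.94 (SE 0.29, adjusted p = 0.212, edgeR), and DESeq2 gave an adjusted p of 0.0446. Klf4, which with Myc can sustain macrophage division, had 468, 454 and 409 in control mice and 765, 495 and 836 in diseased-BWF1 mice, without overlap, and a log2FC of 0.65 (SE 0.20, adjusted p = 0.224, edgeR).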

How the data were processed

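Stranded mRNA libraries of sorted PMs were sequenced as paired 75-base reads. The authors deposited raw counts per RefSeq record for each mouse, as whole numbers without normalization. Their processing notes name Salmon 0.8.0, DESeq2 and GRCm38.p6 with no role given, and how reads shared by transcripts were assigned is not given in the sources used here. Of 107193 records, 86466 matched a gene of the RefSeq table and were summed per gene, and unmatched records held 6.98% to 10.9% of a library's counts. Genes were filtered with filterByExpr and tested with edgeR 4.0.16 (TMM, quasi-likelihood, default settings) in R 4.3.3, over 10505 genes with Benjamini-Hochberg adjustment and no covariate. For genes under this filter an unfiltered fit was used. Normalized counts used DESeq2 1.42.0 size factors, CPM used TMM. Intervals are 95%, and errors of means are SDs over 3 mice, which may include technical spread. Alternatives included limma 3.58.1 (voom), curated records and each mouse left out. The members and lists were chosen with earlier results of these data known. The members named mouse by mouse were any called, those without overlap at an unadjusted p under 0.05, Mki67, Top2a, Cdk1, the D-type cyclins and inhibitors, and the most counted member and the one of largest fold change in each other role. Of the lists, the 2 genes with the smallest p were named. Further members were added after their values were seen. A further gate of the sort and some single genes of the lists are not reported here. The edgeR code was run on simulated counts. With 200 genes changed (median log2FC estimate 1.98 for those raised), 87.5% were recovered, and 9.79% of 194 calls were false. With 0 genes changed, 0 were called. Smaller changes were not simulated.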

Additional observations from a re-analysis of the deposited data

How the results depend on the processing

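No gene of the proliferation set was called higher or lower under any alternative run. The number of all genes called depended on the processing. From 42 higher and 86 lower, it moved to 89 and 170 without the low-count filter, 128 and 242 with DESeq2, 27 and 57 with at least 10 counts in every library, and 9 and 7 with curated mRNA records alone. With age as a covariate 53 were lower. The replicate number as a block gave 18 and 20, and 81 and 161 with DESeq2 (chosen after seeing the data). Leaving out 1 mouse gave 11 to 22 higher and 10 to 29 lower, and leaving out both mice numbered 1 (chosen after seeing the data) gave 4 and 2. The deviations of same-numbered mice correlated at 0.117, 0.00556 and 0.157, and control mouse 2 did not correlate best with its own number. These correlations do not settle whether the mice were handled as pairs, and the labels do not say whether a number marks a day or batch. The main test did not treat them as pairs, because the study compared the 2 groups only. The log2FC of Mki67 was -0.14 with the replicate block, -0.17 with the block in DESeq2, -0.24 with limma-voom, -0.45 without both mice numbered 1, and -0.95 to 0.56 with 1 mouse left out. With 1 mouse left out, Top2a had -1.30 to 0.37, Pcna -0.16 to 0.0723 and Aurkb -0.17 to 0.97. Pcna had 0.0114 with library totals only, and Ccnd3 had 0.18 with curated records alone. The cause of these moves was not tested. Low counts limit the mitosis genes, of which 16 of 22 were below the filter.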

Other observations

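The 42 genes have 96 transcript records in the files, 82 of them with a count, and 88.1% of the counts lie on curated mRNA records. A single record had more than 3 counts in each mouse of a group and 0 in each mouse of the other, the predicted record XM_006505460.1 of Ccnd2, with 0 counts in all 3 control mice and 20, 41 and 16 counts in diseased-BWF1 mice 1, 2 and 3. It was named after its values were seen. The curated Ccnd2 record NM_009829.3 had 26, 8 and 3 counts in control mice and 51, 46 and 7 in diseased-BWF1 mice, and the predicted record XM_006505459.2 had 0, 23 and 12 against 0, 22 and 0. How counts were shared among records of a gene is not given in the sources used here, and single records were not tested.

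The counts of Mki67 lay on different records in different mice. Its curated record NM_001081117.2 had 41, 32 and 0 counts in control mice and 0 in each diseased-BWF1 mouse, while the predicted record XM_006507412.3 had 93, 14 and 22 against 125, 22 and 55. The sum over all 4 records is the value used above.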
